A study of Rattus norvegicus with 17 samples.

Results

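Gfap Tnc astrocytes are here the nuclei of rat prefrontal cortex that carried RNA of Gfap or Tnc together with general astrocyte transcripts. A nucleus was a member when it held at least 3 UMIs (molecular identifiers, each marking 1 captured transcript) of Gfap and Tnc together and at least 5 UMIs of Slc1a2 and Aqp4 together. It also had to hold fewer than 2 UMIs of the neuronal genes Slc17a7, Gad1 and Gad2, fewer than 3 of the oligodendrocyte genes Mog, Mag and Opalin, and fewer than 3 of the fibroblast genes Slc6a13, Ranbp3l and Tbx18. Of 146069 nuclei, 6007 (4.11%) were members. The rule reads measured values, so the levels of these 13 genes are a description of how the members were chosen.

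Gfap encodes the intermediate filament protein of astrocytes and is abundant in astrocytes at the pial surface, in white matter and in reactive states, and scarce in many astrocytes of the cortical grey matter. Tnc encodes tenascin C, a matrix glycoprotein made by glia in development and at borders and injuries in the adult. Aqp4 is the water channel of astrocyte endfeet, A2m a secreted protease inhibitor, and Id3 a transcriptional inhibitor that is a classical target of BMP (bone morphogenetic protein) signalling.

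The study measured nuclear RNA of flash-frozen prefrontal cortex from rats by droplet sequencing of 3′ ends. The labels describe 17 libraries in 4 groups, which are wild type and Srd5a2 knockdown rats (5-alpha-reductase-2, an enzyme of neurosteroid synthesis, spelled Sdr5a2 in the titles), each without stress or after a forced swim of 10 min in water of 25 °C. How the knockdown was made and the age of the rats are not given in the sources used here. Set g3, the single set of 5 libraries in the table, was taken as the knockdown group without stress, because that group alone has 5 replicates in the titles. This is an inference from names, and so are the replicate numbers, which were taken from the number after the point in a library's name. Over all nuclei, Srd5a2 itself had 8 to 24 UMIs per library in these 5, or 0.209 to 0.468 CPM (UMIs per 1000000), within the 0.125 to 0.556 CPM of the other 12, so its level did not set them apart. On that inference they are called the libraries labelled knockdown control, or the 5 libraries, in what follows. Sets g1, g2 and g4 (12 libraries) carry no name that ties them to a group, so they are given as single values or ranges and no effect of stress or knockdown was tested. The replicates are labelled as biological.

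The libraries labelled knockdown control held 7541 to 9560 nuclei and 24920319 to 60309455 UMIs each, and supplied 2042 members. Across all 17 libraries, 2690 of 143355 distinct cell barcodes occurred in more than 1 library (7 to 35 per pair of libraries). Among the members 228 carried such a barcode, and 2 barcodes were shared by 2 members. Libraries g4.3 and g4.4 held few members (62 and 20), and library g1.1 held the most (785).

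Within the members the sum of Gfap and Tnc UMIs had a median of 4 and reached 65. At the threshold, 1835 members (30.5%) held exactly 3 such UMIs, and 3097 nuclei that met every other condition held 2 and were left outside. Both genes were detected in 3548 members (59.1%), Gfap without Tnc in 1993 (33.2%) and Tnc without Gfap in 466 (7.76%). Free RNA gives UMIs in nuclei that do not express a gene, and in the libraries labelled knockdown control a Gfap UMI was seen in 19.6% of oligodendrocytes and 17.7% of microglia. The threshold of 3 UMIs was reached by 1.09% of oligodendrocytes (median depth 1959.5 UMIs), 0.564% of microglia (1809 UMIs) and 1.53% of neurons (9826.5 UMIs). Members had a median depth of 3066.5 UMIs.

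The label was read against genes outside the rule, over all 2042 members of the 5 libraries. Levels are in CPM of the summed nuclei, as mean ± SD over libraries (n = 5). The glutamate transporter Slc1a3 was at 2294 ± 291 CPM in members, 299 ± 31.0 CPM in oligodendrocytes, 543 ± 65.8 CPM in microglia and 1872 ± 206 CPM in fibroblasts. The gap junction gene Gja1 was at 1282 ± 297 CPM in members, 248 ± 64.4 CPM in oligodendrocytes, 293 ± 112 CPM in microglia and 484 ± 108 CPM in fibroblasts. Both means were higher in members than in these 3 classes, with fibroblasts the nearest. The 3 classes were limited to fewer than 5 UMIs of Slc1a2 and Aqp4 together, so such a difference is partly set by the gates. Nuclei that met the other conditions of the rule with 0 Gfap or Tnc UMIs, without signs of another class as defined below, were nearer. They stood at 2791 ± 318 CPM for Slc1a3, above the members, and at 937 ± 209 CPM for Gja1.

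Markers of other classes were also present. Oligodendrocyte markers, 3 of which the rule limits, summed to 476, 1158, 783, 487 and 287 CPM in members of replicates 1 to 5, with replicate 2 highest. The 6 microglia markers summed to 128 to 266 CPM per library in members. Endothelial markers summed to 21.5, 45.0, 20.7, 22.8 and 142 CPM in members of replicates 1 to 5, so replicate 5 stood above the others. Ependymal markers summed to 1.38 to 4.77 CPM, with Tmem212 at 0 UMIs. The 3 Bergmann glia markers summed to 155 to 357 CPM in members. Most of that was Hopx, a homeodomain protein also found in other astroglia (224 ± 81.6 CPM), while Gdf10 was at 1.19 ± 1.61 CPM. The part of such RNA in the results was not tested. Doublet scores of 0.25 or more were given to 59 members (0.982%) and to 1.80% of all nuclei.

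Members made up 5.95%, 3.87%, 3.61%, 5.62% and 3.59% of the nuclei in replicates 1 to 5 labelled knockdown control, a mean of 4.53 ± 1.16% (SD, n = 5). In the other 12 libraries the share ran from 0.270% to 9.07% with a median of 3.64%. Replicates 1 and 4 were above the other 3, and their exact Clopper-Pearson 95% intervals, which cover counting error only, did not meet those of the others. When each nucleus was thinned to 2000 UMIs the share was 3.12 ± 1.01%, against 5.11 ± 1.41% for the same deep nuclei before thinning. The limits of the rule are fixed in UMIs, so the share depends on depth and a fall was largely built in. The part of depth in the differences between libraries was not tested. Shares of astrocytes were not recomputed after thinning. Thinning left out 39888 nuclei of the series, 1254 of them members, because they were shallower.

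**Figure D1:**
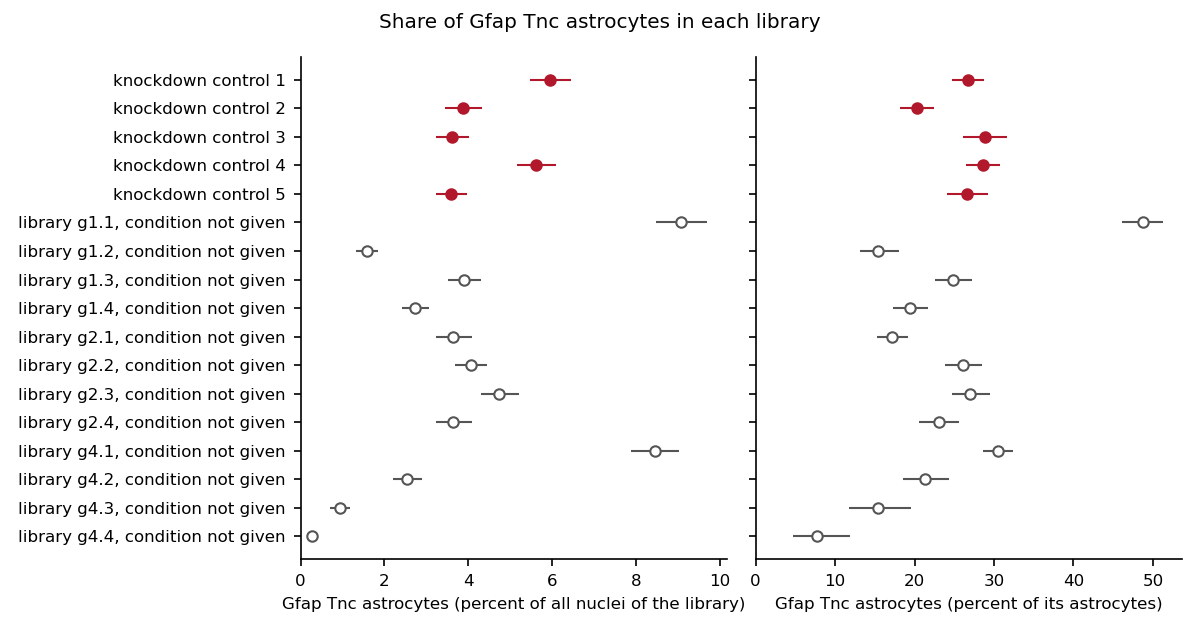
Share of Gfap Tnc astrocytes per library, in percent of all nuclei (left) and in percent of the library's astrocytes (right); filled points are the 5 libraries labelled knockdown control, open points the 12 libraries of unknown condition, and bars are exact 95% binomial intervals. Library g1.1 stands highest in both panels and g4.4 lowest.

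As a share of astrocytes (nuclei that met the other conditions of the rule and had no signs of another class as defined below), members were 26.7%, 20.3%, 28.8%, 28.6% and 26.6% in replicates 1 to 5. The mean was 26.2 ± 3.46% (SD, n = 5). Replicate 2, the library with the fewest UMIs of the 5, was lower than the other 4. The other libraries ran from 7.76% in g4.4 to 48.7% in g1.1, with a median of 22.2%. The balance of the 2 genes also varied, from 1.49 to 2.78 Gfap UMIs per Tnc UMI in the members of the 5 libraries. It was 5.48 in g1.1, the highest of the 17, where 0.892% of members carried Tnc without Gfap. The libraries with the highest and lowest member shares also differed in Gfap UMIs of other nuclei. A Gfap UMI was seen in 54.1% of fibroblasts in g1.1 (median depth 2231 UMIs), 1.18% in g4.3 (1403 UMIs) and 3.16% in g4.4 (1512 UMIs), against 12.1% to 26.3% in the 5 libraries. Other libraries followed this order in part. Beside the shares of astrocytes given above, replicates 1 to 5 had a Gfap UMI in 17.5%, 14.4%, 26.3%, 22.9% and 12.1% of fibroblasts. In g4.1, where members were 8.45% of nuclei, the value was 21.0%. Libraries g1.2 and g4.3 both had 15.4% members among astrocytes, and the value in g1.2 was 14.7%. The part of such Gfap UMIs in the shares was not tested.

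Mean levels of several genes stepped up or down with the Gfap and Tnc UMIs of a nucleus, which is given as a description, since Aqp4 and Slc1a2 are read by the rule and A2m and Id3 were proposed as markers. Among astrocytes of the 5 libraries, 2678 nuclei held 0 such UMIs, 2747 held 1 or 2, 985 held 3 or 4, 665 held 5 to 8 and 278 held 9 or more. Aqp4 stood at 375 ± 88.3 CPM at 0 UMIs, 827 ± 289 CPM at 3 or 4 and 1658 ± 647 CPM at 9 or more (SD, n = 5). Id3 went from 143 ± 45.0 CPM at 0 UMIs through 271 ± 36.6 CPM at 1 or 2 to 453 ± 116 CPM at 3 or 4 and 579 ± 174 CPM at 9 or more. A2m was at 11.7 ± 9.25 CPM at 0 UMIs, 27.4 ± 7.52 CPM at 3 or 4 and 125 ± 105 CPM at 9 or more. For Id3, which the rule does not read, the mean at 1 or 2 UMIs lay between those at 0 and at 3 or 4. These nuclei were not matched in depth, and the median depth per library was 1609 to 2373 UMIs at 0 UMIs and 3395 to 5166 UMIs at 9 or more.

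**Figure D2:**
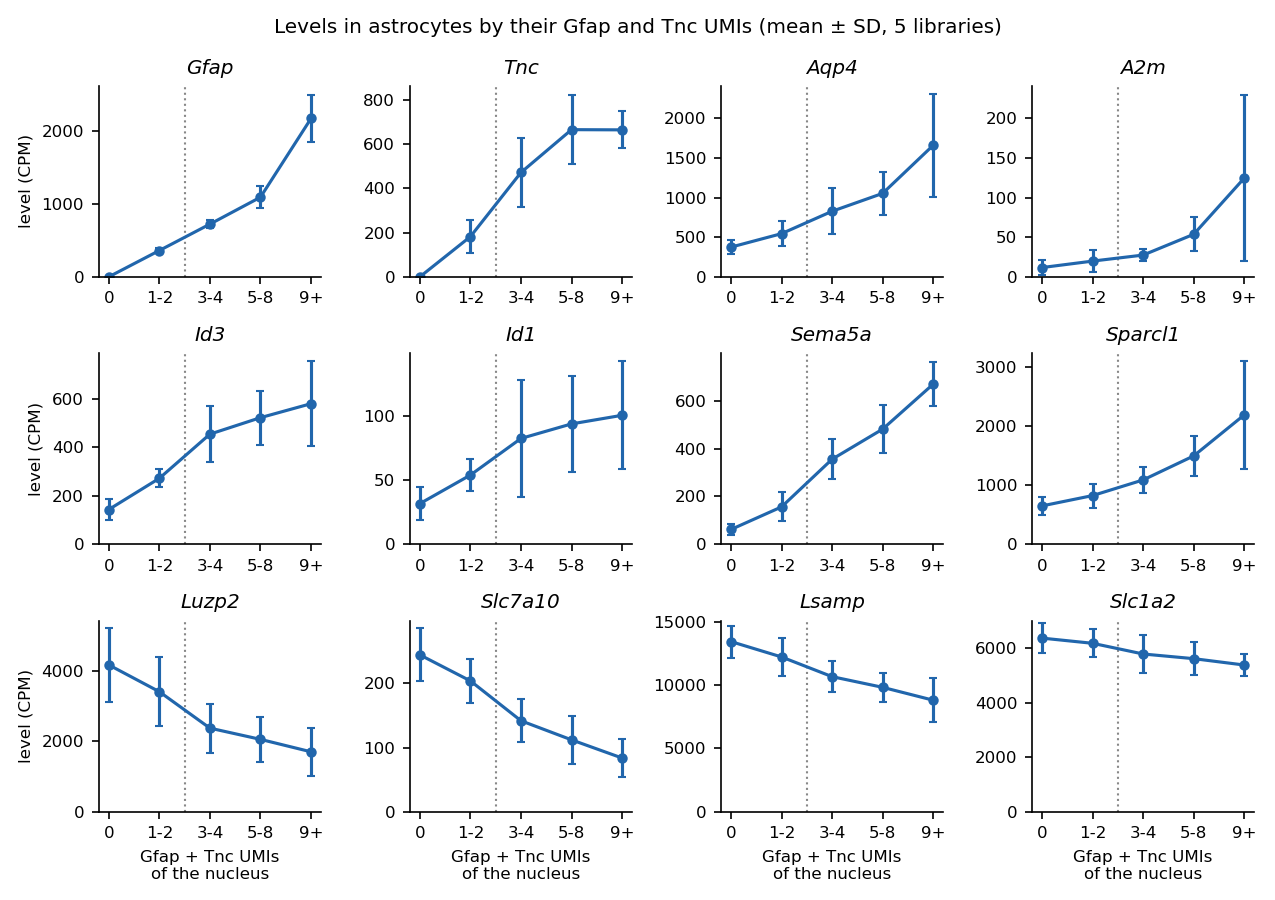
Level in CPM (y axes, from 0) of 12 genes in astrocytes grouped by their Gfap and Tnc UMIs (x axis), as mean ± SD over the 5 libraries labelled knockdown control; the dotted line marks the threshold of the rule. Aqp4, A2m, Id3, Id1, Sema5a and Sparcl1 climb from 0 to 9 or more UMIs, and Luzp2, Slc7a10, Lsamp and Slc1a2 descend; Gfap, Tnc, Aqp4 and Slc1a2 are read by the rule.

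To describe what else set the members apart, they were compared with astrocytes of the same libraries that held 0 Gfap or Tnc UMIs. Equal numbers were drawn per library and bin of 250 UMIs, counts were summed per library and class, and edgeR's quasi-likelihood test was run with the library as a block and Benjamini-Hochberg adjustment over all tested genes. In the comparison as planned, with 1751 nuclei per class, 2297 of 10092 tested genes (22.8%) were called at an adjusted p under 0.05, 1087 higher and 1210 lower in members. The 12 leading higher genes were Chst9, FAM187A, P3h2, Disp3, Dnah12, Stk32a, Samd11, Cd44, Rpe65, Abca8a, Mrc2 and Lama2. The leading lower genes included Vwc2l, Htr4, Hs6st3, Trabd2b, Cntnap5b, Plcxd3, Hs6st2, Htr2c, Grik3, Grin2a and Hs3st4, several of them known from neurons, such as the serotonin receptor Htr2c and the NMDA receptor subunit Grin2a. Vwc2l stood at 8.23 ± 3.94 CPM in members and 132 ± 34.2 CPM in the comparison nuclei (log2 difference −3.99, SE 0.17, edgeR adjusted p = 7.84e-17).

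The comparison nuclei were mixed. More than 50 of 10000 UMIs came from 10 neuronal genes in 682 of the 3493 nuclei without a Gfap or Tnc UMI (19.5%), against 15 of the 2042 members. The comparison was therefore repeated without nuclei above that limit or with 4 or more UMIs of the marker lists of oligodendrocyte precursors, microglia, endothelial or mural cells. This removed 815 comparison nuclei (23.3%) and 114 members (5.58%) and left 1480 nuclei per class after matching, 208 to 413 per library. Nuclei having been removed on neuronal genes, summed inhibitory markers then lay at 43.7 to 93.1 CPM in members and 48.4 to 84.2 CPM in comparison nuclei. Other marker sums still differed in their means, with precursor markers at 74.4 against 54.1 CPM, endothelial at 23.6 against 15.7 CPM and neural stem and neuroblast at 109 against 76.5 CPM, and fibroblast at 116 against 144 CPM and mural at 159 against 189 CPM. Oligodendrocyte markers stood at 758 against 667 CPM, and the Bergmann glia list at 249.97 against 73.4 CPM, nearly all of it Hopx. Their part in the results was not tested. Of 9066 tested genes 1019 (11.2%) were called, 548 higher (6.04%) and 471 lower (5.2%), and the median log2 difference of all tested genes was 0.00. The planned comparison shared 439 of the 548 higher calls and 186 of the 471 lower calls. Of its 12 leading higher genes 10 were called higher again and 2 were not tested, and of its 12 leading lower genes 0 were called again, 2 being tested without a call and 10 not tested. The log2 differences and calls of genes and lists that follow come from the repeated comparison, which was set up after the planned one had been seen, up to the comparison of Gfap-led with Tnc-led members. Nuclei were removed on the microglia, endothelial, mural and precursor lists there, so the sums of those lists are no independent check. Each list's counts in the planned comparison are given beside it, and several differ widely.

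The 12 leading higher genes of the repeated comparison lay 6.83 to 9.61 times above the comparison nuclei. They were chosen for the largest log2 differences and 1 sign in the 5 libraries, so this choice favours genes whose classes lie apart. Sema5a, a guidance molecule of the semaphorin family, stood at 509, 588, 422, 461 and 385 CPM in members of replicates 1 to 5 and at 77.0, 68.9, 41.5, 51.3 and 27.5 CPM in the comparison nuclei. Every member value was above every comparison value (log2 difference 3.09, SE 0.10, edgeR adjusted p = 7.4e-55), and it was higher in all 12 other libraries. AC125757.1, a gene with no further name in the table, was at 1333 ± 148 CPM in members and 197 ± 76.8 CPM in comparison nuclei (log2 difference 2.77, edgeR adjusted p = 2.37e-62, n = 5 libraries). Emid1, a secreted protein with an EMI domain, was at 30.1, 87.6, 84.7, 90.4 and 73.6 CPM in members and at 11.3, 11.5, 6.92, 7.56 and 5.00 CPM in comparison nuclei. Replicate 1 was the lowest in members there, and the classes still did not overlap (log2 difference 3.00, SE 0.22, edgeR adjusted p = 2.46e-23).

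The remaining leading higher genes had less RNA behind them, with 123 to 258 UMIs each over the members of the 5 libraries. They were the collagen prolyl hydroxylase P3h2, the kinase Stk32a, the ion transport protein Cnnm1, the potassium channel subunit Lrrc55, the dynein heavy chain Dnah12, the sulfotransferase Chst9, Mamdc2, Adamtsl1 (a secreted relative of the ADAMTS proteases) and FAM187A. P3h2 stood at 49.8, 47.6, 41.5, 56.9 and 39.9 CPM in members and at 4.70, 7.66, 3.46, 6.72 and 5.00 CPM in comparison nuclei. Each of its member values was above each comparison value (log2 difference 3.06, SE 0.26, edgeR adjusted p = 9.86e-20). At least 20 CPM was asked of the higher class alone, so genes low in comparison nuclei, such as P3h2, could enter through the members. Their fold differences rest on these low levels. FAM187A is the coding gene next to Gfap and Chst9 the one next to Aqp4 in the RefSeq order of GRCr8, and both Gfap and Aqp4 are read by the rule. Whether reads of the neighbour enter their counts was not tested.

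**Figure D3:**
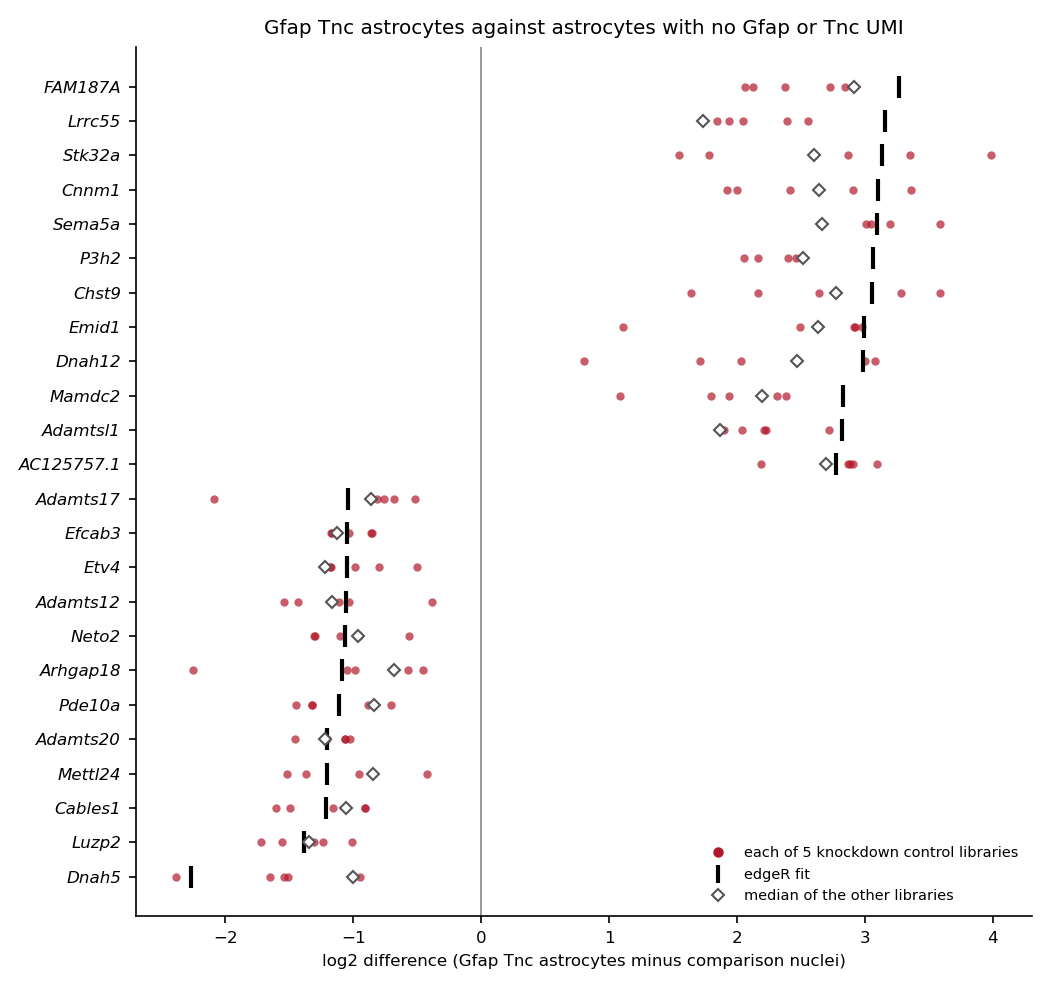
Log2 difference (x axis) of the 12 leading higher and 12 leading lower genes between Gfap Tnc astrocytes and astrocytes with no Gfap or Tnc UMI, nuclei of other classes left out. Red points are the 5 libraries labelled knockdown control, computed on CPM with 5 added, which draws low genes towards 0; the bar is the edgeR fit and the diamond the median of the 12 other libraries. All red points lie on the side of the fit by selection, since genes were chosen for the same sign in the 5 libraries.

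Lower genes changed less, from 2.06 to 4.82 times. Luzp2, a leucine zipper protein of glia, fell from 6213, 3720.4, 4570.2, 3287 and 5064 CPM in the comparison nuclei to 2512, 1123, 1550.2, 1395 and 2518 CPM in members. The classes did not overlap, and it was lower in all 12 other libraries (log2 difference −1.39, SE 0.06, edgeR adjusted p = 2.72e-43). Cables1, a cyclin-dependent kinase adaptor, was at 149 ± 29.5 CPM against 348 ± 28.8 CPM (log2 difference −1.21, edgeR adjusted p = 1.17e-24, n = 5 libraries). The secreted metalloproteases Adamts20, Adamts12 and Adamts17 of the ADAMTS family were among the 12. Adamts20 was at 258, 166, 169, 178 and 202 CPM in members and 544, 463, 359.8, 418 and 415 CPM in comparison nuclei, with no overlap (log2 difference −1.20, edgeR adjusted p = 1.77e-27).

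Dnah5 was lower by 2.27 on the log2 scale (SE 0.34, edgeR adjusted p = 4.13e-08), on 19 UMIs in members and 91 in comparison nuclei. It and Dnah12 both encode axonemal dynein heavy chains and lay at opposite ends of the ranking. The phosphodiesterase Pde10a overlapped between classes, because replicate 4 held 53.6 CPM in members and 141 CPM in comparison nuclei while the other libraries held 489 to 3166 CPM. It was lower in members of each of the 5 libraries, as the choice of leading genes required (log2 difference −1.11, edgeR adjusted p = 3.91e-29). Mettl24, Efcab3, the transcription factor Etv4, the kainate receptor partner Neto2 and Arhgap18 made up the rest.

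Gene lists are given by their counts, to be read beside the 6.04% higher and 5.2% lower among all tested genes. Counts of the planned comparison are to be read beside its 10.8% higher and 12% lower. At an unadjusted p under 0.05 in edgeR, 1035 of all 9066 genes were higher and 923 lower in the repeated comparison. DESeq2 called 244 higher and 196 lower there, of 16608 genes without a filter on low counts. Of 24 tested genes of the extracellular matrix list (46 in the table), 11 were called higher, 1 lower and 12 in neither direction, with a median log2 difference of 0.18 against 0.00 for all genes. The planned comparison called 13 higher and 4 lower of 30. Lama2, a laminin chain of basement membranes, was at 64.9, 107, 48.4, 46.1 and 64.9 CPM in members and 7.51, 19.1, 10.4, 10.9 and 13.8 CPM in comparison nuclei. All member values were above all comparison values (log2 difference 2.38, SE 0.20, edgeR adjusted p = 2.43e-19). Adamts9, a protease of proteoglycans, stood at 244 ± 43.0 CPM against 74.2 ± 30.1 CPM (log2 difference 1.63, edgeR adjusted p = 1.02e-27, n = 5 libraries). Unlike the other ADAMTS genes named above it was higher in members. The tenascin Tnr (log2 difference 1.60), the matricellular Sparcl1 (1.14), the proteoglycans Ncan (1.24), Bcan (0.48) and Sdc4 (0.76) and the collagen Col16a1 (0.87) were also called higher. The call lower was Gpc5, a glypican, at 15758 ± 1518 CPM against 19302 ± 736 CPM.

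Cell adhesion genes were divided. Among 21 tested of 31, 5 were called higher and 8 lower (median log2 difference −0.15), and 4 and 6 of 23 in the planned comparison. The calls of Cdh4 (0.18 planned, −0.19 repeated) and Ctnna2 (−0.42 planned, 0.22 repeated) turned direction between the comparisons. Cd44, the hyaluronan receptor, was at 79.9, 131, 112, 111 and 52.4 CPM in members and 13.1, 28.7, 22.5, 23.5 and 16.3 CPM in comparison nuclei. The classes were apart in each library (log2 difference 2.19, SE 0.16, edgeR adjusted p = 4.87e-23). Cd44 is the coding gene next to Slc1a2, a gene of the rule, in the same RefSeq order. Whether reads of the neighbour enter its counts was not tested. The adhesion molecules Chl1 and Cdh20 were higher (log2 differences 0.76 and 0.46), and Pcdh7, Nrcam, Cdh10 and the integrin Itgb8 lower (−0.60, −0.33, −0.29 and −0.47).

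Genes of BMP signalling and its Id targets had 8 of 19 tested genes (26 in the table) called higher and 0 lower, with a median log2 difference of 0.31. At an unadjusted p under 0.05 the counts were 11 higher and 0 lower, and DESeq2 called 6 higher and 0 lower. The planned comparison called 13 and 0 of 20. Among the targets, Id1 was at 120.3, 103, 157, 55.3 and 69.8 CPM in members and at 19.7, 32.5, 39.8, 16.0 and 18.8 CPM in comparison nuclei, without overlap (log2 difference 2.00, SE 0.16, edgeR adjusted p = 3.61e-21). Id2 was at 368 ± 104 CPM against 128 ± 44.9 CPM (log2 difference 1.50, edgeR adjusted p = 2.11e-31, n = 5 libraries). Id4 differed by 0.58. Id3, which was proposed as a marker of the members and gets no test, was at 544 ± 143 CPM against 114 ± 25.6 CPM. Of the receptors, Bmpr1a was called higher (206 ± 18.7 CPM against 103 ± 4.59 CPM, log2 difference 0.96, edgeR adjusted p = 1.16e-15), and Bmpr1b and Bmpr2 were not called (0.16 and −0.08). The inhibitory Smads, Smad6 and Smad7, were called higher (1.23 and 0.55), as was the secreted BMP modulator Bmper (1.59). Of the Smads that carry the signal, Smad9 was called higher (1.03), and Smad1 and Smad5 were not called (0.09 and 0.26). The ligands Bmp6 and Bmp7 were not called (0.31 and −0.46).

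Notch pathway genes had 4 of 15 tested called higher and 1 lower (6.04% and 5.2% over all tested genes), and DESeq2 called 2 and 1. The planned comparison called 7 and 1 of 17. The receptors Notch1 and Notch2 (log2 differences 0.62 and 0.35), the ligand-like Dner (0.70) and the target Hey1 (0.99) were higher, and its relative Heyl was lower (−0.86, edgeR adjusted p = 1.7e-05). Stat3, the transcription factor downstream of gp130 cytokine receptors, was the call among 9 tested genes of that pathway (2 higher and 1 lower of 12 in the planned comparison), at 140.2 ± 12.3 CPM against 80.9 ± 24.2 CPM (log2 difference 0.73, edgeR adjusted p = 3.33e-08, n = 5 libraries). The receptor subunits Il6st and Lifr were not called (−0.03 and 0.37).

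Cytoskeletal genes and genes known from reactive astrocytes were higher in part. Of 13 tested cytoskeletal genes, 7 were called higher and 0 lower by edgeR, with a median log2 difference of 0.43. At an unadjusted p under 0.05 the counts were 9 and 0, and DESeq2 called 3 and 0. The planned comparison called 6 and 1 of 13. The linker plectin, Plec, was at 84.6, 171, 154, 136 and 118 CPM in members against 44.1, 80.4, 46.7, 47.9 and 55.0 CPM, with no overlap (log2 difference 1.23, edgeR adjusted p = 1.32e-15). The filament genes Synm and Vim differed by 0.89 and 0.64, and Vim lay at 197 CPM in members of replicate 3 and at 34.9 to 51.4 CPM in the other 4. The call for Vim was lost under DESeq2, without doublets, without matching in depth and without the block. Of the 37 reactive-astrocyte genes in the table, 11 passed the filter on low counts, and 6 were called higher (Cd44, Cp, Hspb1, Stat3, Vim and S100b) and 1 lower (Fkbp5), against 8 and 1 of 12 in the planned comparison. The lipocalin Lcn2 and complement C3, classical genes of that list, were at 0.716 and 1.64 CPM in members and did not pass.

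Genes of the astrocytes' transport and homeostatic work moved both ways. Of 25 tested genes of glutamate, water and ion handling, 7 were called higher and 4 lower (median log2 difference 0.07), whereas the planned comparison called 14 higher and 2 lower (median 0.30). The glutamate transporter Slc1a3 was lower, at 2276 ± 309 CPM against 2892 ± 319.7 CPM, and the amino acid exchanger Slc7a10 was at 113, 74.2, 91.6, 144 and 172 CPM in members against 168, 209, 244, 277 and 249 CPM. Slc7a10 was lower in each of the 5 libraries and in all 12 others (log2 difference −0.93, SE 0.10, edgeR adjusted p = 9.65e-15). Glutamine synthetase Glul (log2 difference 0.56), the gap junction gene Gja1 (0.44), the sodium pump subunit Atp1b2 (0.51) and Mlc1 of the endfoot membrane (0.70) were higher. Of 35 protoplasmic astrocyte genes, named for the grey matter type, 8 were called higher and 8 lower, with a median of −0.06. In the planned comparison 19 were called higher and 3 lower, with a median of 0.26, so the balance of this list depends on which comparison nuclei are used. The lower ones included Lsamp (−0.67), Ntm (−0.37), Gpc5 (−0.33), Grm3 (−0.31) and Mertk (−0.27), and the higher ones Sparcl1 (1.14), Sdc4 (0.76), Ntsr2 (0.51), Nfix (0.51) and Sox9 (0.44).

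**Figure D4:**
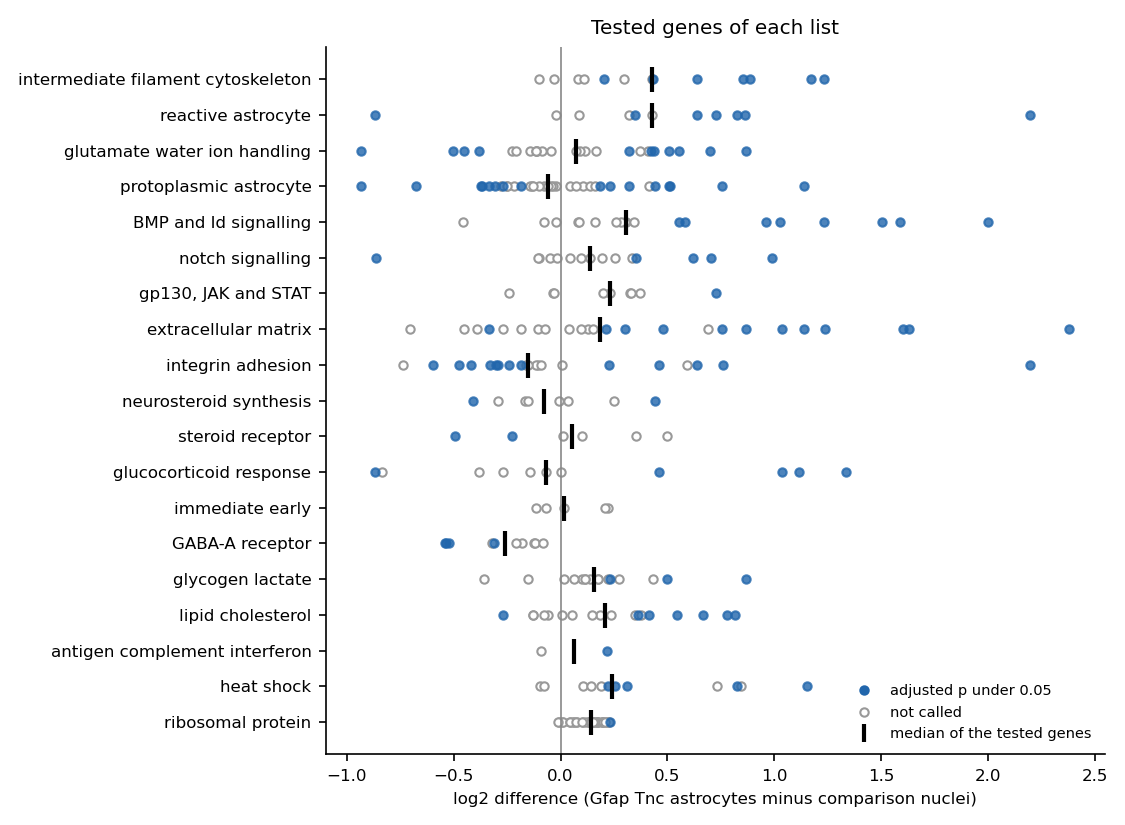
Log2 difference (x axis) between Gfap Tnc astrocytes and astrocytes with no Gfap or Tnc UMI for every tested gene of 19 lists; filled points have an edgeR adjusted p under 0.05, open points were not called, and bars are the medians of the tested genes. BMP and Id signalling has 8 filled points on the right and 0 on the left, and the protoplasmic list has 8 on each side.

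Among lipid genes, 6 of 18 were called higher and 1 lower by edgeR, and 4 and 0 by DESeq2, against 10 and 1 of 19 in the planned comparison. The lipid carriers Apoe (log2 difference 0.55), Clu (0.82), Fabp7 (0.78) and Fabp5 (0.66) were higher, and Apoe stood at 8014 CPM in members of replicate 3 and 3475 to 4532 CPM in the other 4. Of 16 glycogen and lactate genes 3 were called higher by edgeR and 0 by DESeq2 (6 at an unadjusted p under 0.05 in edgeR, and 6 called in the planned comparison), the lactate carrier Slc16a1 (0.87), the glucose carrier Slc2a1 (0.50) and Aldoc (0.23, a call lost under 10 alternatives). Of 12 heat shock genes 5 were called higher by edgeR and 1 by DESeq2 (6 of 13 in the planned comparison), and the co-chaperone Bag3 differed by 1.15. Of 33 ribosomal protein genes 1 was called, Rplp2 (0.23, edgeR adjusted p = 0.0467), a call lost under 13 alternatives. At an unadjusted p under 0.05, 14 ribosomal genes were higher and 0 lower. The adjusted calls were 6 higher and 0 lower when scaled by library totals alone, 0 higher and 11 lower without matching in depth, and 7 higher and 0 lower in the planned comparison, so no direction is given for this list. Of the antigen, complement and interferon list 2 genes were tested and 1, B2m, was called higher by edgeR and 0 by DESeq2 (1 of 3 in the planned comparison).

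Steroid and stress genes concern the study's question. In the neurosteroid list 8 of 25 genes were tested, 1 called higher and 1 lower (6.04% and 5.2% over all tested genes, and 1 and 0 of 9 in the planned comparison), and Cyp7b1, an oxysterol and neurosteroid hydroxylase, was higher at 1515, 1618, 1509, 1907 and 1719.9 CPM in members against 1156, 1223, 1131, 1272 and 1151 CPM. The classes did not overlap (log2 difference 0.44, SE 0.06, edgeR adjusted p = 1.51e-10). The electron donor Por was lower (−0.41, edgeR adjusted p = 0.0069), a call lost under 9 alternatives. The 5α-reductases had too few UMIs for a test, with Srd5a1 at 3.99 ± 1.44 CPM and Srd5a3 at 7.27 ± 1.57 CPM over all members (SD, n = 5). Of 6 tested steroid receptors 2 were called lower by edgeR and 1 by DESeq2, whereas the planned comparison called 0 lower and 2 higher, Nr3c2 (0.33) and Esr1 (0.97). The glucocorticoid receptor Nr3c1 (−0.23, a call lost under 7 alternatives) and the oestrogen receptor Esr2 (−0.50) were lower, and the mineralocorticoid receptor Nr3c2 was not called in the repeated comparison (0.01).

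Glucocorticoid-responsive genes gave 4 calls higher and 1 lower among 11 tested, and 3 and 0 by DESeq2. The planned comparison called 4 and 3 of 12. The metallothioneins Mt2A (136 ± 57.1 CPM against 57.7 ± 16.2 CPM, log2 difference 1.12, edgeR adjusted p = 8.03e-14, n = 5 libraries) and Mt1 (1.04), Nfkbia (1.34) and Ddit4 (0.46, a call lost under 10 alternatives) were higher. Fkbp5, a chaperone of the receptor complex, was lower on few counts (10.4 ± 6.07 CPM against 19.4 ± 6.65 CPM, edgeR adjusted p = 0.0219), and the call was lost under 8 alternatives, among them leaving out replicate 2 or replicate 5. None of 5 tested immediate early genes was called by edgeR or DESeq2, and 0 had an unadjusted p under 0.05. The planned comparison called 1 higher and 2 lower of 11. The summed level of the immediate early list over all members was 159 to 286 CPM in the 5 libraries and 128 to 495 CPM in the other 12. The summed glucocorticoid list over all members was 487 to 727 CPM in the 5 libraries and 387 to 1330.3 CPM in the others, with a median of 1062 CPM. In astrocytes with 0 Gfap or Tnc UMIs that list summed to 513 to 583 CPM in the 5 libraries. The others gave 402 to 1242 CPM there, with a median of 921 CPM. Of 10 GABA-A receptor genes 4 were called lower (1 higher and 8 lower of 11 in the planned comparison), among them Gabra2 (−0.31), Gabra4 (−0.53) and Gabrg3 (−0.54), and the main astrocyte subunits Gabrb1 and Gabrg1 were not called (−0.12 and −0.08).

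The other 12 libraries, which entered no test, were read for direction. Members were chosen there by the same rule, so these libraries are no check on what the rule itself brings. No share over all tested genes is set beside the shares that follow. In the 10 of them with 123 to 473 matched nuclei per class, 85.6% to 94.0% of the 548 higher genes and 82.6% to 91.5% of the 471 lower genes had the same sign. In g4.3, with 50 matched nuclei per class, the shares were 56.4% of the higher and 65.4% of the lower genes. In g4.4, with 16, they were 54.2% and 56.1%.

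Members led by 1 of the genes were compared last. Those with Gfap and 0 Tnc UMIs (60 to 169 per library) were set against those with Tnc and 0 Gfap UMIs (17 to 65), matched to 163 nuclei per class. Of 1265 genes with enough counts 37 (2.92%) were called, 23 higher in the Gfap-led nuclei (1.82%) and 14 higher in the Tnc-led (1.11%). Grm5, a metabotropic glutamate receptor, was at 296, 466, 296, 890.4 and 829.9 CPM in Gfap-led and 44.8, 192, 179, 201 and 334 CPM in Tnc-led members. It was higher in Gfap-led members of every library, as the choice of named genes required. The ranges overlapped between libraries (log2 difference 1.76, SE 0.22, edgeR adjusted p = 3.98e-08). Grm5 was also higher in all 11 other libraries with nuclei left after matching. These were small, from 4 matched nuclei per class in g4.3 and 7 in g1.1 to 40 in g4.1. Library g4.4 held 6 Gfap-led and 4 Tnc-led nuclei, and 0 of them could be matched in depth. Between all members and other astrocytes, Grm5 was lower in the planned comparison (−0.96, edgeR adjusted p = 3.2e-09) and not called in the repeated one (−0.06). The adhesion gene Ncam2 (1.11), the cytolinker Dst (0.71) and Mlc1 (0.62) were also higher in Gfap-led nuclei. The call of Mlc1 was lost under 9 alternatives, leaving out any 1 replicate among them, and that of Dst under 5, leaving out replicate 1 among them.

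On the Tnc-led side, AC125757.1 stood at 1634, 1133, 1530.0, 1336 and 1687 CPM against 263, 985, 473, 591 and 564 CPM in Gfap-led nuclei. The ranges did not overlap in the 5 libraries (log2 difference −1.46, SE 0.18, edgeR adjusted p = 3.98e-08), and 7 of 11 other libraries had the same direction. The ephrin ligand Efna5 was at 430.3 ± 112 CPM in Tnc-led and 194 ± 36.8 CPM in Gfap-led nuclei (log2 difference −1.18, edgeR adjusted p = 0.000118, n = 5 libraries) and higher in Tnc-led nuclei of all 11 others. Inpp4b (−1.24), the semaphorin Sema6a (−0.93), Auts2 (−0.59), Fgf13 (−0.58) and Gabrb1 (−0.35) followed, of which Gabrb1 lost its call under 8 alternatives and the others under 3 or 4. Id3, given without a test, was at 628 ± 149 CPM in Tnc-led and 313 ± 125 CPM in Gfap-led nuclei. A2m ran the other way, at 11.2, 17.4, 0, 36.6 and 0 CPM in Tnc-led and 22.4, 86.4, 78.8, 54.5 and 16.6 CPM in Gfap-led nuclei. Without the block for the library, edgeR called 0 genes higher and 2 lower, with 47 and 52 of 1265 at an unadjusted p under 0.05. DESeq2 with the block had no filter on low counts and took in 14166 genes. It called 1 higher (Grm5) and 0 lower, with 58 and 43 of the 14166 at an unadjusted p under 0.05.

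**Figure D5:**
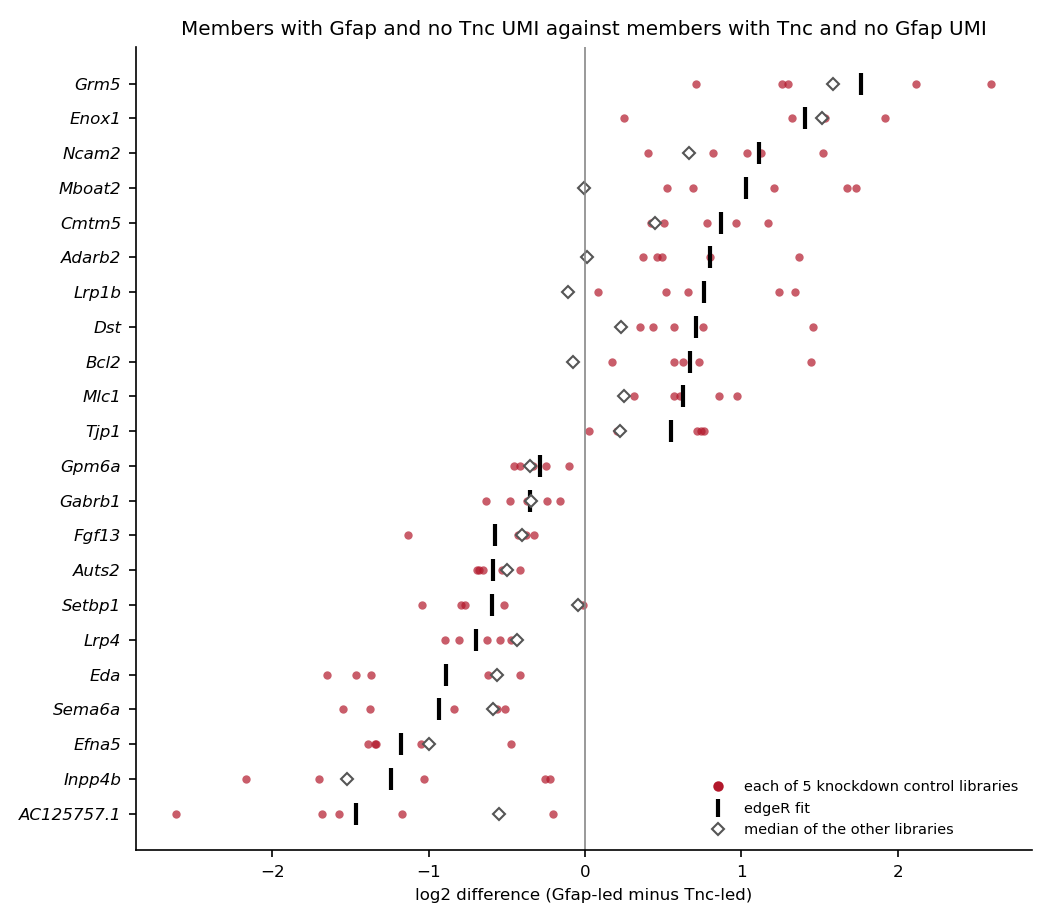
Log2 difference (x axis) of named genes between Gfap-led and Tnc-led members. Red points are the 5 libraries labelled knockdown control, computed on CPM with 5 added, bars the edgeR fit and diamonds the median of 11 other libraries. All red points lie on the side of the fit, from Grm5 at the top to AC125757.1 at the bottom. This holds by selection, since genes were chosen for the same sign in the 5 libraries.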

How the data were processed

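Single-nucleus RNA of rat prefrontal cortex was analysed from 1 matrix of 19298 genes and 146069 nuclei. Its values are raw UMI counts as deposited by the authors, and the submitters' processing notes name Cell Ranger and Seurat 4.1; aligner settings, build and filters are not given in the sources used here. Members and gene lists were chosen with earlier results of these data known. Nuclei matched per library and 250-UMI bin were summed per library and class and tested with edgeR 4.0.16 (R 4.3.3; quasi-likelihood, library as block, Benjamini-Hochberg adjustment over all tested genes, threshold 0.05). The pairing by library comes from the design, since both classes are nuclei of the same library. The 13 genes of the rule, A2m and Id3 got no test, and in the repeated comparison 49 genes got none, those that define the removed classes included. That comparison was added after seeing the data, in a first version without neuron-rich nuclei alone and then as reported. Named genes are the 12 with the largest log2 difference each way among called genes with at least 20 CPM in the higher class and 1 sign in the 5 libraries, and the listed genes; some genes that met this rule are not reported here. Each listed pathway (19 lists, 453 genes, 438 in the table) is described by counts. Doublets were scored with the Scrublet method of scanpy 1.11.5 and kept. On simulated counts, 2-fold changes were recovered for 93.8% of changed genes in the planned comparison (9951 genes), 95.8% in the repeated one (8924 genes) and 94.0% between Gfap-led and Tnc-led nuclei (1173 genes). These counts followed edgeR's own model, with the same mean profile in all libraries. Mixed nuclei, the choice of members and differences between libraries are therefore not covered.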

Additional observations from a re-analysis of the deposited data

Results flagged for a closer look

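In 73 measures over the 5 libraries labelled knockdown control, 7 had 1 library apart from the other 4 by more than Dixon's 95% critical value (0.71), and chance alone gives about 1 in 20. Members were 20.3% of astrocytes in replicate 2 and 26.6% to 28.8% in the others. The log2 difference of Emid1 between members and astrocytes with 0 Gfap or Tnc UMIs, on CPM with 5 added, was 1.11 in replicate 1 and 2.49 to 2.97 in the others. That of AC125757.1 was 2.19 in replicate 2 and 2.87 to 3.09 in the others, and that of Adamts17 was −2.09 in replicate 2 and −0.81 to −0.51 in the others. Between Gfap-led and Tnc-led nuclei, Fgf13 differed by −1.14 in replicate 1 and by −0.43 to −0.33 in the others. The summed level of the lipid and cholesterol list in members was 12800.0 CPM in replicate 3 and 6778 to 7388 CPM in the others. The antigen, complement and interferon list summed to 1244 CPM in replicate 3 and 533 to 735 CPM in the others.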

How the results depend on the processing

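With no replicate block, the planned comparison called 481 higher and 767 lower (1087 and 1210 with the block for the library), the repeated one 185 and 56 (548 and 471), and Gfap-led against Tnc-led 0 and 2 (23 and 14). Listed genes without the block came to 64 higher in the planned comparison (117 with it) and to 27 and 6 in the repeated one (70 and 29). DESeq2 called 535 higher in the planned comparison, 244 and 196 in the repeated one (43 and 18 of the listed genes), and 1 and 0 between Gfap-led and Tnc-led nuclei. Without matching in depth the planned counts were 2699 and 2451 (listed genes 199 and 54) and those of Gfap-led against Tnc-led nuclei 66 and 35, and B2m and Rplp2 turned to log2 differences of −0.073 and −0.12 in the repeated comparison. Leaving out nuclei with signs of another class gave the 548 and 471 of the repeated comparison, against 580 and 498 with neuron-rich nuclei alone removed. Against nuclei with 1 or 2 Gfap or Tnc UMIs 295 genes were lower. Leaving out doublets left 11 genes higher in Gfap-led nuclei. Leaving out each replicate gave 871 to 959 higher and 1042 to 1118 lower in the planned comparison (listed 100 to 115 and 29 to 31), 445 to 487 and 352 to 423 in the repeated one (listed 57 to 72 and 23 to 29), and 13 to 33 and 4 to 26 between Gfap-led and Tnc-led nuclei. Those last counts were 13 and 4 without replicate 1, 15 and 7 without replicate 4, and 26 lower without replicate 2. The share of members was 6.92% with a limit of 2 UMIs, 2.22% with 5, 3.12% after thinning to 2000 UMIs, and 4.17% to 4.76% with each replicate left out. The cause was not tested where counts moved, other than by the construction of each setting. The 24 leading genes of the planned comparison kept their calls in the settings that tested them, except with nuclei of other classes left out, where 10 of the 12 higher and 0 of the 12 lower were called, 12 not being tested. In the repeated one 50 of 123 called named or listed genes did, with 28 more lost solely without the block. Every 1 of the 23 named genes between Gfap-led and Tnc-led nuclei lost its call in at least 1 setting. Gfap-led and Tnc-led nuclei were compared on 17 to 60 matched nuclei per class and library, and 1265 genes had enough counts for a test.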
